A study of Mus musculus with 2 samples.

Results

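The 9 genes described here encode transcription factors that set up and maintain the identity of microglia and macrophages. They were taken by their symbols in GRCm38 (GENCODE M21 names) from the 53801 genes listed for each library, and all 9 were found. No cutoff on measured values was applied, but the 9 were chosen with earlier results of these data known. Microglia had been sorted as CD11c-Ly6G-CD11b+CD45low cells from the left hemisphere of male mice aged 8 to 10 weeks, and the libraries analysed here were the 2 from sham-operated mice, 1 mouse per library. Both mice were Cx3cr1(CreER/wt) on a C57BL/6 background, that is, one copy of the chemokine receptor gene Cx3cr1 carried the tamoxifen-inducible Cre recombinase. They had received tamoxifen at 75 mg/kg per day for 4 days, underwent sham surgery 14 days after the first injection and their cells were sorted 3 days after surgery. Cre from this allele is made in border macrophages as well as in microglia, and the sample titles call the mice WT and sham while the treatment field reads none. WT here means controls for conditional knockout mice with the same Cre, not mice without it. Mice with an occluded cerebral artery were not analysed here. No condition was compared, and the difference between the libraries is a spread within 1 group. With 1 mouse per library, differences between mice, cell sorting and library preparation cannot be told apart.

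Microglia arise from yolk sac progenitors, and their fate is fixed by a small set of factors that open enhancers together. PU.1, the product of Spi1, is an ETS factor that marks macrophage enhancers and binds beside partners such as IRF8. RUNX1 and the C/EBP proteins act early in myeloid development, whereas SALL1, the MEF2 proteins and the large MAF proteins are tied to the mature state, and SALL1 separates microglia from most other macrophages.

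Some regulatory and coding sequence of these genes is shown first. The coding sequence bears on how their reads can be told apart. The GC content that the libraries are compared over below is that of transcripts, not of promoters. RefSeq start sites (GRCm38.p6) were at hand for 7 of the 9 genes, with 13 start sites in all. The 250 bases before the start site of Cebpa (chr7:35119043-35119292, plus strand), of Cebpb (chr2:167688665-167688914, plus strand), of Irf8 at its first start site (chr8:120736108-120736357, plus strand) and of Mef2c at its first start site (chr13:83503784-83504033, plus strand) read, 5′ to 3′, as follows, with matches to the TATA box or the ETS core in capitals.
Cebpa: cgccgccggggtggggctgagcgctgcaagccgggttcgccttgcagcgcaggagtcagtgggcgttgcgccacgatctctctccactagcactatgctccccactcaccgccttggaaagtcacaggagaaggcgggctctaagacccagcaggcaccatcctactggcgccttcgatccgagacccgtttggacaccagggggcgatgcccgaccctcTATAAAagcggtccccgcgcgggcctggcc
Cebpb: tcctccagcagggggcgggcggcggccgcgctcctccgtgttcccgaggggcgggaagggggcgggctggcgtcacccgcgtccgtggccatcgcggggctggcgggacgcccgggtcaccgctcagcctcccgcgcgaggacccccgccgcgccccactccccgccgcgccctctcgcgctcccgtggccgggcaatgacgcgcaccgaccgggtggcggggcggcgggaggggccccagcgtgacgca
Irf8: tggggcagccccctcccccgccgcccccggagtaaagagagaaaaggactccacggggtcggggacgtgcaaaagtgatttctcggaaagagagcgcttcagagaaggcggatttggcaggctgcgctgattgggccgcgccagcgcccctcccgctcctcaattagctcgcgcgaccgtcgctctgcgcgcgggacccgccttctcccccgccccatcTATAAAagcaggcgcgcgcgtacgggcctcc
Mef2c: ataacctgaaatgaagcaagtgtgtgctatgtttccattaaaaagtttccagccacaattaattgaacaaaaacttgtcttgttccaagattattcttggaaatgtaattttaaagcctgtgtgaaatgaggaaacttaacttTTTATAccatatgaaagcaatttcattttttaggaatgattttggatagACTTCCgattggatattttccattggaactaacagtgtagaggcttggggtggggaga

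The promoters differed in composition. The window from 250 bases before to 50 bases after the start held 80.7% G or C for Cebpb and 67.3% for Cebpa, and that of the first start site of Mef2c held 35.7%, against a median of 52.7% over 32851 promoters. TATAAA was found on either strand at 5 of the 13 start sites and in 13.6% of all promoters. In Irf8 the match began 31 bases and in Cebpa 30 bases before the start. At the first and second start sites of Mef2c it was on the opposite strand, beginning 107 and 22 bases before the start. In Cebpb it lay after the start. The ETS core GGAAGT, which PU.1 can bind, was found at 2 of the 13 start sites (1 of Mef2c and 1 of Sall1) and in 23.8% of all promoters, on either strand. A match to the MEF2 motif lay across the start site of Mef2a itself (chr7:67372841-67372870, minus strand), from 2 bases before the start to base 8 of the transcript, and is shown in capitals within 30 bases. This motif was found in 3.69% of all promoters.
Mef2a: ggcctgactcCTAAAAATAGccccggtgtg
The composite motif of PU.1 with an IRF was found in 2.72%, the IRF repeat in 3.44% and the C/EBP motif TTGCNNAA in 10.8% of all promoters, and none of these 3 was found in the windows of the 7 genes. The MAF core TGCTGA was found at 2 of the 13 and the RUNX motif TGTGGT at 1 of the 13 start sites, against 19.5% and 16.8% of all promoters. All motifs were searched on both strands, and such matches describe letters, not binding.

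Mef2a and Mef2c encode closely related proteins with a shared DNA-binding MADS box at the start. Their first 180 coding bases are shown from GENCODE M21 transcripts, with the longest stretch the 2 genes share in this window in capitals.
Mef2a: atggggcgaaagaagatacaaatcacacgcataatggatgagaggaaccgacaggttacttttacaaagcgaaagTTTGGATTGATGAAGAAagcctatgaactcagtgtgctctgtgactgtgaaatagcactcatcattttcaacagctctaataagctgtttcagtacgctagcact
Mef2c: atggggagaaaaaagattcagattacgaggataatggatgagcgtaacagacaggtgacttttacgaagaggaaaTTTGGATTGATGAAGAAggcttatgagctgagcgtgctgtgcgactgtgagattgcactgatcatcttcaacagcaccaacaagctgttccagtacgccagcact
Of these bases 148 (82.2%) were identical, and 26 of the 32 differences fell on the third base of a codon. The longest shared stretch in this window was 17 bases. Over all transcripts, Runx1 and Runx3 shared an exact stretch of 38 bases at most, as did Sall1 and Sall3. Cebpa and Cebpb shared 29 bases at most.

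Microglia markers were abundant in both libraries, but in library 2 the neutrophil markers outweighed them. Library 1 held 23381026 counts on genes and library 2 held 41142609. Levels are given as counts scaled to 1000000 counts of the library (CPM). The 12 microglia markers, among them Tmem119 and P2ry12, made up 5.72% of library 1 and 5.63% of library 2, and of the 12 only Csf1r differed by more than 2-fold, being lower in library 2. Genes of neutrophils, which the gate on Ly6G should leave out, set the libraries apart, with 14 markers making up 0.513% of library 1 (5125 CPM) and 6.26% of library 2 (62588 CPM). Their sum was thus below that of the microglia markers in library 1 and above it in library 2. Of these 14 markers, 13 were more than 2-fold higher in library 2, the exception was Csf3r, and none was at 0 in either library. Monocyte markers (6 genes) summed to 731 CPM and 3512 CPM, of which Chil3 alone gave 455 and 2901 CPM. Of the 6, 3 were more than 2-fold higher in library 2, again beside 5.74%, and 2 were lower by less than 2-fold. The 7 border macrophage markers summed to 709 CPM in library 1 against 338 in library 2. Markers of B cells summed to 570 and 778 CPM, of neurons to 2.57 and 4.25 CPM, of astrocytes to 225 and 173 CPM, of oligodendrocytes to 101 and 111 CPM and of endothelium to 18.7 and 15.5 CPM. What part these other cells had in the levels of the factors was not tested. In bulk samples, fewer cells of a type and less RNA per cell cannot be told apart.

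Spi1, which encodes PU.1, was the most abundant of the 9 factors per length, and its levels in the libraries lay close together. Spi1 (ENSMUSG00000002111, chromosome 2, 91082390 to 91115756, plus strand) had 16360 counts (700 CPM) in library 1 against 33196 (807 CPM) in library 2, with a mean of 753 ± 75.8 CPM (SD, n = 2 libraries). Divided by the 2695 bases covered by its exons, this was 260 CPM per kb in library 1 and 299 CPM per kb in library 2. Gene positions are those of GRCm38. No other factor was higher per length in either library. Among the 13445 genes that reached 10 counts in each library, here called counted genes, the mean level per length of Spi1 stood at the 98.8th percentile.

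Irf8, whose product pairs with PU.1 and is needed for microglia to form normally, came next. Irf8 (ENSMUSG00000041515, chromosome 8, 120736358 to 120756694, plus strand) had 23382 counts (1000.04 CPM) in library 1 against 24288 (590 CPM) in library 2, with a mean of 795 ± 290 CPM (SD, n = 2). Per length it had 142 and 83.7 CPM per kb. Irf8 was therefore below Spi1 per length in both libraries, while its counts exceeded those of Spi1 in library 1 (1.43 to 1) and not in library 2 (0.732 to 1).

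Sall1, the zinc finger factor that keeps microglia apart from other macrophages, was well above the limit of counting in both mice. Sall1 (ENSMUSG00000031665, chromosome 8, 89027235 to 89044162, minus strand) had 7889 counts (337 CPM) in library 1 against 6025 (146 CPM) in library 2, with a mean of 242 ± 135 CPM (SD, n = 2). Its level per length was 64.1 CPM per kb in library 1 and 27.8 CPM per kb in library 2. Library 1 was the higher one, by 2.30-fold on the CPM scale.

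The MEF2 factors, which bind many microglia enhancers, differed in how they varied between the libraries. Mef2c (ENSMUSG00000005583, chromosome 13, 83504034 to 83667080, plus strand) had 15145 counts (648 CPM) in library 1 against 23710 (576 CPM) in library 2, with a mean of 612 ± 50.5 CPM (SD, n = 2). Mef2a (ENSMUSG00000030557, chromosome 7, 67231163 to 67372858, minus strand) had 9933 counts (425 CPM) in library 1 against 6673 (162 CPM) in library 2, with a mean of 294 ± 186 CPM (SD, n = 2). Mef2c was thus close to even, whereas Mef2a was 2.62-fold lower in library 2. Within a library, where no scaling enters, Mef2a had 0.656 counts for each count of Mef2c in library 1 and 0.281 in library 2.

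Maf, a large MAF factor of mature macrophages, and Runx1, a factor of blood and microglia progenitors that resting microglia also make, were lower. Maf (ENSMUSG00000055435, chromosome 8, 115682942 to 115707794, minus strand) had 3981 counts (170 CPM) in library 1 against 5545 (135 CPM) in library 2, with a mean of 153 ± 25.1 CPM (SD, n = 2). Runx1 (ENSMUSG00000022952, chromosome 16, 92601466 to 92826149, minus strand) had 3252 counts (139 CPM) in library 1 against 2899 (70.5 CPM) in library 2, with a mean of 105 ± 48.5 CPM (SD, n = 2). Runx1 was 1.97-fold and Maf 1.26-fold lower in library 2.

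The C/EBP factors had the lowest counts and differed most between the libraries among the 9. Cebpa, a driver of the granulocyte and monocyte lineage (ENSMUSG00000034957, chromosome 7, 35119293 to 35121928, plus strand), had 1577 counts (67.4 CPM) in library 1 against 321 (7.80 CPM) in library 2, with a mean of 37.6 ± 42.2 CPM (SD, n = 2). Cebpb, which controls inflammatory genes of macrophages (ENSMUSG00000056501, chromosome 2, 167688915 to 167690418, plus strand), had 179 counts (7.66 CPM) in library 1 against 84 (2.04 CPM) in library 2, with a mean of 4.85 ± 3.97 CPM (SD, n = 2). Cebpa was 8.64-fold and Cebpb 3.75-fold lower in library 2, and the mean of Cebpa is set by library 1. The counting intervals did not meet, at 64.2 to 70.9 CPM against 6.97 to 8.70 CPM for Cebpa and 6.58 to 8.86 CPM against 1.63 to 2.53 CPM for Cebpb (exact 95% Poisson intervals, counting error only). The single exon of Cebpb shares 312 of its 1504 bases (20.7%) with exons of Tmem189 on the opposite strand, which had 1932 and 1684 counts. Reads from that stretch may be assigned to either gene or to none, so the level of Cebpb is uncertain. Exons of Mef2a, Maf, Runx1 and Cebpa also overlapped an opposite-strand gene, over at most 5.34% of their length.

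**Figure D1:**
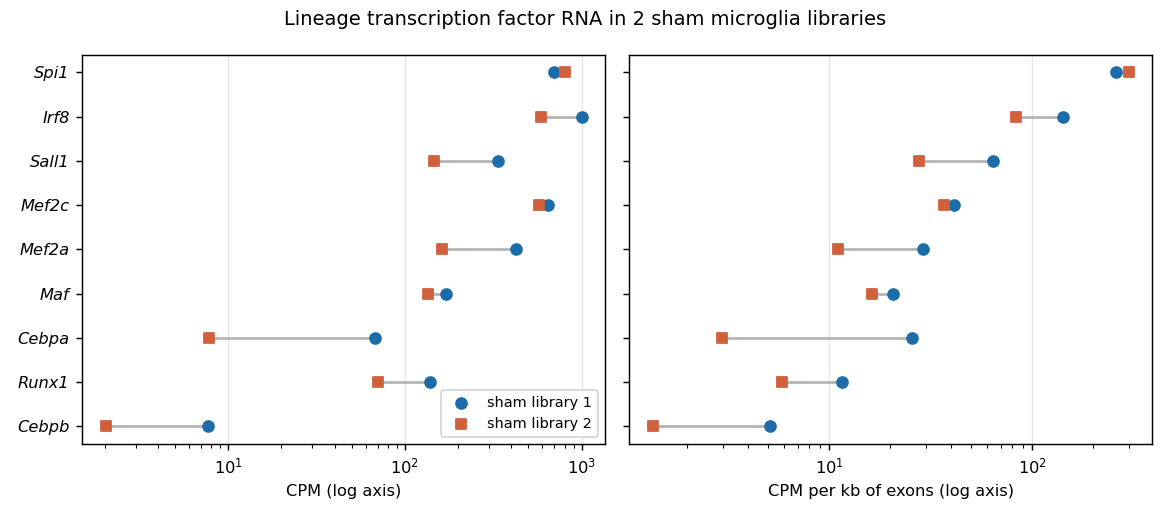
Level of each of the 9 factors in sham library 1 (circles) and sham library 2 (squares), as CPM (left) and CPM per kb of exons (right), both on log axes. Spi1 lies at 260 and 299 CPM per kb, above every other factor in each library, and the line joining the 2 points is longest for Cebpa.

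Per length, the order of the means ran Spi1, Irf8, Sall1, Mef2c, Mef2a, Maf, Cebpa, Runx1 and Cebpb. Spi1, Irf8 and Cebpb held the first, second and last place in both libraries. Of the 36 pairs of factors, 32 stood in the same order in the 2 libraries. The exceptions were Sall1 with Mef2c, Mef2a with Maf, and Cebpa with Maf and with Runx1. Of the 8 steps between neighbours in this order, 4 were free of overlap over the 2 libraries, namely Spi1 to Irf8, Irf8 to Sall1, Mef2c to Mef2a and Runx1 to Cebpb. The order in the middle depended on which length was used. Dividing by the longest transcript placed Sall1 below Mef2c and Mef2a, and dividing by coding exons placed it below Maf and Runx1 as well. Spi1, Irf8 and Cebpb kept their places with each of these lengths.

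Between the libraries, 8 of the 9 factors were lower in library 2 on the CPM scale, and 4 (Sall1, Mef2a, Cebpa and Cebpb) were lower by more than 2-fold. Among counted genes, 31.7% differed by more than 2-fold in either direction, and 25.9% were lower in library 2 by that much. The share of the factors past 2-fold was above these background shares by few genes, and nothing particular to the factors as a group is read from it. The median log2 ratio of library 2 over library 1 was −0.98 over the 9 factors and −0.26 over all counted genes. Cebpa, at −3.11, stood at the 0.796th percentile of this ratio among counted genes and Cebpb, at −1.91, at the 7.99th. Spi1, at 0.21, was the only factor higher in library 2 on this scale and stood at the 71.6th percentile. With TMM scaling, which moved the median of all genes to −0.032, Mef2c also came out higher, at 0.062.

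**Figure D2:**
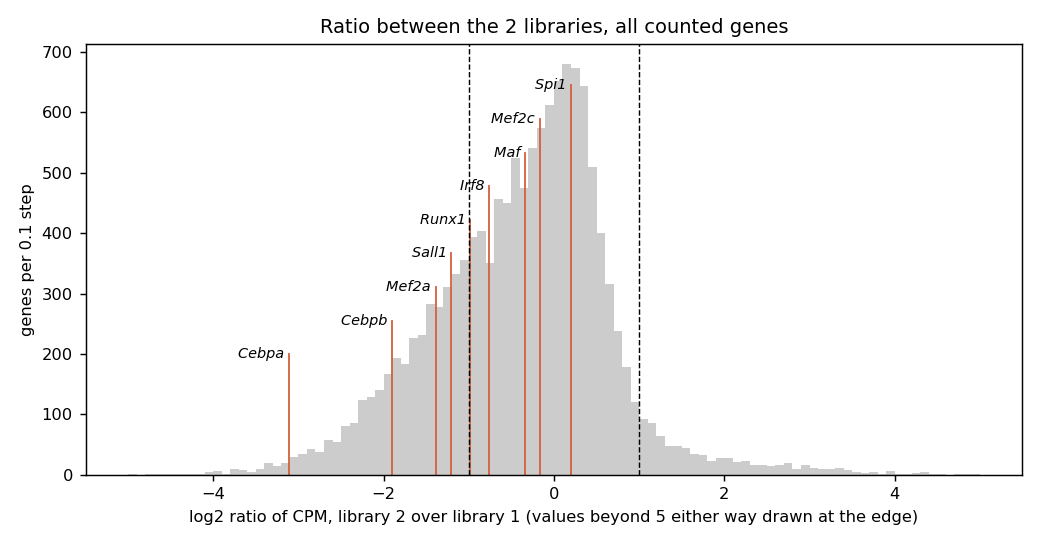
Histogram of the log2 ratio of CPM in library 2 over library 1 for 13445 counted genes, in steps of 0.1, with each factor drawn as a vertical line (line heights carry no value) and dashed lines at 2-fold. Cebpa lies at −3.11 in the far left tail, and Spi1 at 0.21 is the only factor to the right of 0.

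The ratio between the libraries moved with transcript length over all genes, and several factors have long transcripts. Counted genes were put in 10 bins of equal size by the length of their longest transcript. In bin 2 (1057 to 1656 bases) the median log2 ratio was 0.15, and in bin 9 (4971 to 6440 bases) it was −0.96. Sall1, Mef2a, Mef2c, Maf and Runx1 all fell in bin 9. Against its median, Runx1 (−0.98) and Sall1 (−1.20) lay close, whereas Mef2c (−0.17) and Maf (−0.34) lay above and Mef2a (−1.39) below. Cebpa and Cebpb, with transcripts of 2626 and 1504 bases, fell in bins whose medians were 0.032 and 0.15, far from their own ratios.

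**Figure D3:**
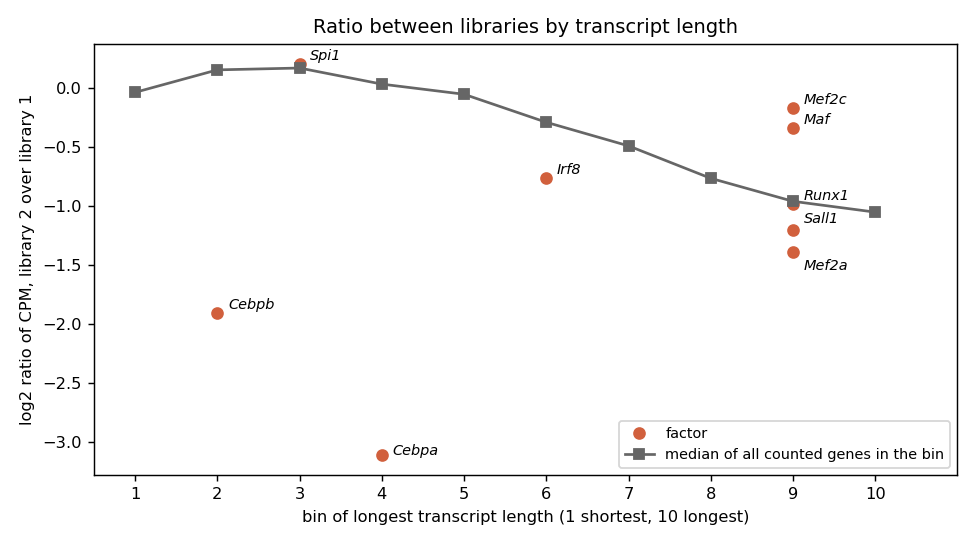
Log2 ratio of CPM in library 2 over library 1 for each factor (circles) against the length bin of its longest transcript (1 to 10, shortest to longest), with the median of all counted genes in each bin (squares joined by a line). The medians fall from 0.17 in bin 3 to −1.05 in bin 10, and Cebpa and Cebpb lie far below the line.

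Base composition moved with the ratio as well. Of 10 bins by GC content of the longest transcript, in the highest (57.3% to 74.0%), which holds Cebpa (62.6%), Cebpb (67.2%) and Spi1 (58.9%), the median log2 ratio was −0.64 and 39.5% of genes were lower in library 2 by more than 2-fold. Spi1 was therefore 0.84 above and Cebpa 2.48 below the median of this bin on the log2 scale. With TMM scaling, DESeq2 size factors or the median of the GC bin subtracted, 3 factors (Mef2a, Cebpa and Cebpb) were lower by more than 2-fold, against 20.0%, 19.0% and 19.1% of counted genes. With the median of the length bin subtracted there were 2, against 14.5%. With the median of genes in the same GC and length bins subtracted, like the length bins an alternative chosen after seeing the data, 2 of the 9 factors were past 2-fold (Cebpa at −2.53 and Cebpb at −1.92), against 12.7% of counted genes that were lower by that much on this scale. Mef2a was then at −0.87, Maf at 0.64, Sall1 at 0.032 and Runx1 at −0.0011, and the median over the 9 factors was −0.0011. Why the libraries differ along length and GC content was not tested.

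**Figure D4:**
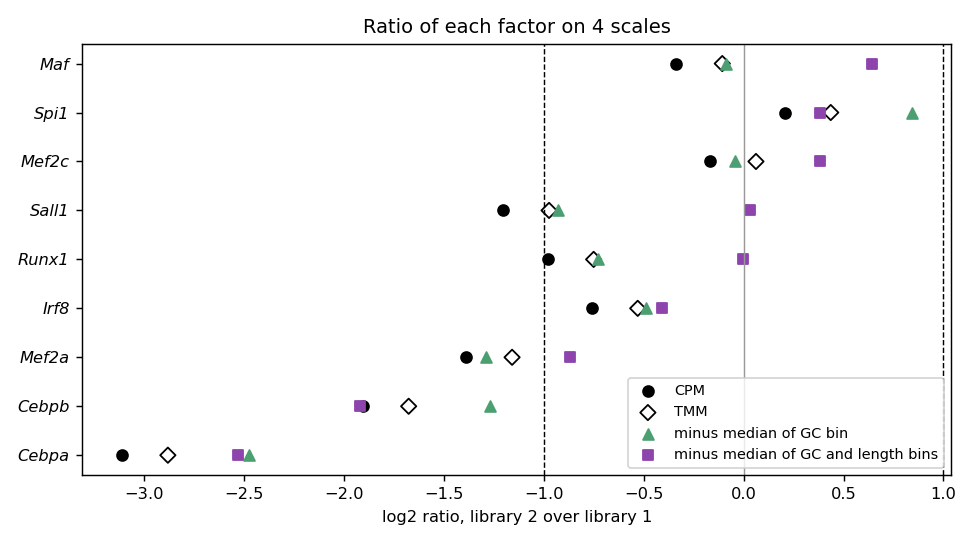
Log2 ratio of library 2 over library 1 for each factor as CPM (filled circles), with TMM scaling (diamonds), minus the median of its GC bin (triangles) and minus the median of genes that share its GC and length bins (squares), with dashed lines at 2-fold. Cebpa and Cebpb stay left of −1 on all 4 scales, while Sall1 moves from −1.20 to 0.032.

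Each factor was next set beside other members of its family, since relatives can bind the same motifs. The families are lists of chosen genes that need not be complete, and shares are of the listed genes only. Of 42 relatives described here in 7 families, 35 were counted genes, and 11 of these were lower and 1 higher in library 2 by more than 2-fold, beside 25.9% and 5.74% of all counted genes. Spi1 took 47.3% of the level per length summed over the 19 listed ETS genes in library 1 and 67.8% in library 2. Its closest relatives Spib and Spic, factors of B cells and of red pulp macrophages, had 24 and 18 counts and 26 and 45 counts. The next most abundant listed ETS gene in library 1 was Etv5, with 410 CPM in library 1 against 88.2 in library 2. Fli1 was the next in library 2, with 241 and 197 CPM in the 2 libraries.

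Irf8 and Irf5, a factor of inflammatory cytokine genes, were the most abundant IRF genes, and which of them led depended on the length used. Irf8 had more counts than Irf5 in both libraries, at 1.67 and 1.09 to 1. Per kb of exons Irf5 was higher in both, with 206 CPM per kb in library 1 and 186 in library 2 against 142 and 83.7 for Irf8. Per kb of the longest transcript Irf8 was higher in library 1 (288 against 267) and lower in library 2 (170 against 241). Per kb of coding exons it was higher in both (786 against 371 and 464 against 334). Irf4, which acts in lymphocytes and some dendritic cells, had 132 and 118 counts. Of the MAF genes described beside Maf, Mafg had 16.5 and 13.5 CPM per kb of exons against 20.7 and 16.4 for Maf, an order that turned per kb of coding exons, with 191 and 156 against 149 and 118. Mafa and Nrl had no counts in either library.

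In the SALL, MEF2 and RUNX families a lineage factor led in both libraries, with each of the 3 lengths. Sall1 took 80.9% of the SALL level per length in library 1 and 78.9% in library 2. Sall3 had 2225 and 2017 counts, and Sall4, a stem cell factor, had no counts in either library. Mef2c took 47.0% of the MEF2 level in library 1 and 72.3% in library 2, while Mef2d had 105 CPM in library 1 and 17.9 in library 2, and Mef2b had no counts. Runx1 took 94.7% and 88.3% of the RUNX level, and Cbfb, which encodes the partner of RUNX1, had 53.2 CPM in library 1 against 38.9 in library 2. Sall1 and Sall3 thus moved by like amounts between the libraries, with log2 ratios of −1.20 and −0.96, as the within-library ratio of 0.282 and 0.335 counts of Sall3 per count of Sall1 shows.

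In the C/EBP family the leading genes stood in other proportions in each library. Cebpa took 27.4% of the family's level per length in library 1 and 2.73% in library 2. Cebpd, which is induced by stress and inflammation, had 113 CPM in library 1 against 214 in library 2, and there were 1.68 counts of Cebpd for each count of Cebpa in library 1 and 27.5 in library 2. Cebpe, which drives late neutrophil maturation, had 67 counts (2.87 CPM) in library 1 against 629 (15.3 CPM) in library 2. Its log2 ratio was 2.42 (95% interval 2.05 to 2.80, counting error only). Cebpe moved with the neutrophil markers, and their part in its level was not tested. Cebpg and Ddit3 had log2 ratios of −0.13 and 0.48. A second Ddit3 identifier at the same locus had no counts, so the level of Ddit3 is uncertain.

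**Figure D5:**
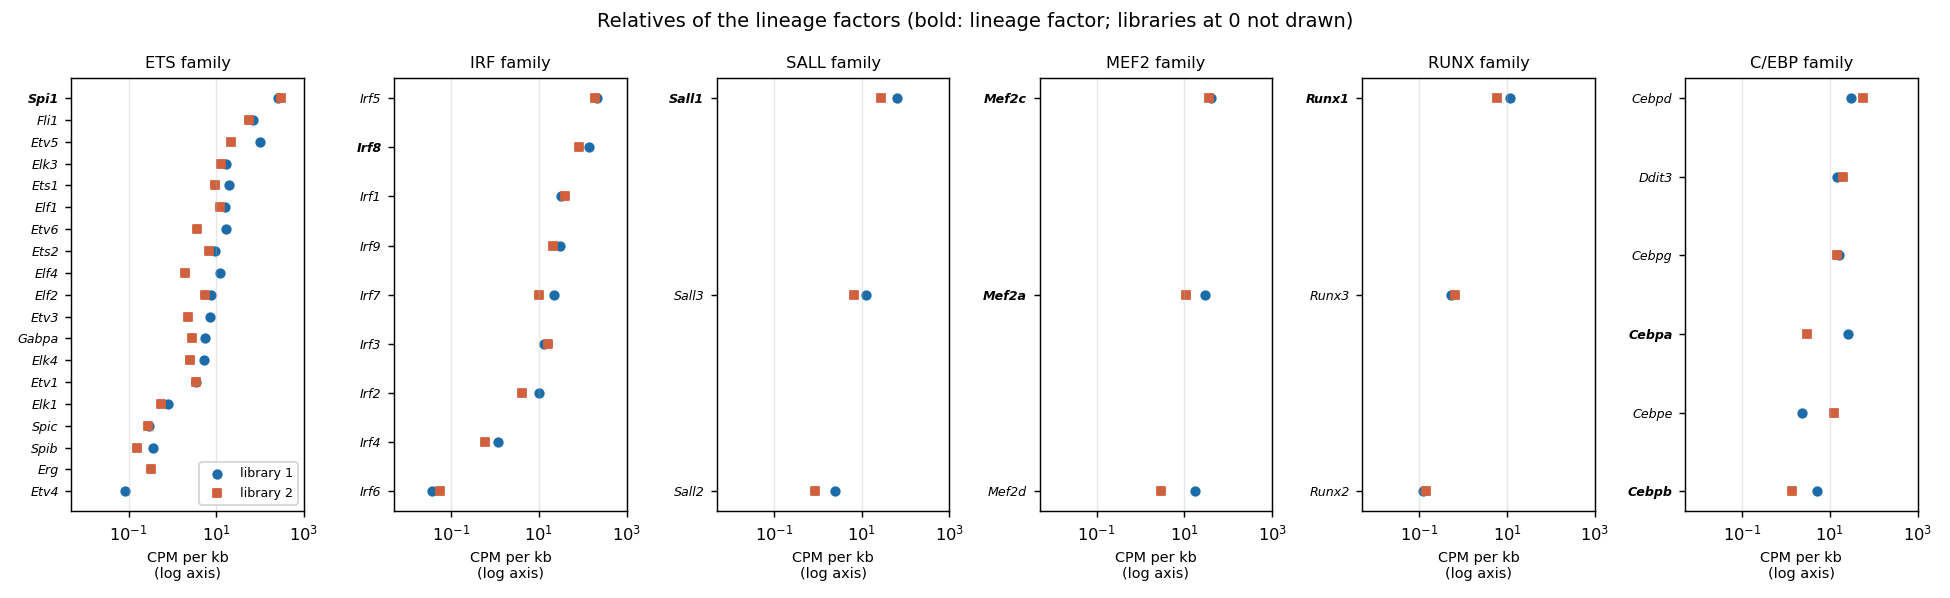
Level of 8 factors (bold; the MAF family is not drawn) and their relatives per kb of exons in library 1 (circles) and library 2 (squares), on log axes that are the same in all 6 panels; a library at 0 and genes at 0 in both libraries are not drawn. Spi1, Sall1, Mef2c and Runx1 are highest among the genes drawn for their families. Irf8 lies below Irf5 on this length, and Cebpa lies at 25.6 and 2.96 CPM per kb.

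Partners of the factors were mostly counted genes. All 12 subunit genes of the NuRD complex, which SALL1 recruits to repress genes, were counted, and 5 were lower in library 2 by more than 2-fold, beside 25.9% of all counted genes. The lowest ratio was that of Mta1, with 89 and 27 counts. The deacetylase Hdac1 had 109 and 142 CPM. Of the 4 class IIa histone deacetylases, which bind and restrain MEF2 proteins, Hdac5 was highest in library 1 with 69.6 CPM. In library 2 Hdac4 and Hdac5 lay close together, with 22.1 and 21.8 CPM. Hdac5 and Hdac7, 2 of the 4, were lower in library 2 by more than 2-fold, beside 25.9% of all counted genes. Trib1, whose product targets C/EBPα for degradation, had 79.8 CPM in library 1 against 53.2 in library 2, and Trib2 had 0 and 18 counts.

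Among 11 other factors of microglia and myeloid cells, 5 were lower and 1 was higher in library 2 by more than 2-fold, beside 25.9% and 5.74% of all counted genes. Smad3, which carries TGF-β signals into microglia enhancers, had 137 CPM in library 1 against 24.8 in library 2, and Bhlhe41 had 96.5 and 15.5 CPM. Ikzf1 had 203 and 65.3 CPM, and Lyl1 and Tal1 were the other two. Tfec, the 1 that was higher, had 24 and 88 counts. Nfe2l2 was more even, with 310 and 418 CPM.

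Factors linked to other macrophages, monocytes and dendritic cells were mostly counted too. Of 7 factors of other tissue macrophages, 6 were counted genes, Zeb2 being the highest with 188 and 88.1 CPM and Pparg of alveolar macrophages having 37 and 33 counts. Of these 6, Zeb2 was lower and Id1, with 56 and 458 counts, was higher in library 2 by more than 2-fold. Over all counted genes these shares were 25.9% and 5.74%. All 6 monocyte and dendritic cell factors were counted genes, and 1 (Nr4a1, with 139 and 34.3 CPM) was lower by more than 2-fold, again beside 25.9% of all counted genes. Of 6 granulocyte factors 3 were counted genes, and Cebpe was the only one of them past 2-fold, beside 31.7% of all counted genes in either direction. Most factors of non-myeloid cells were near or under the limit of counting. Meis1 and Hlf were above it in both libraries, and further exceptions lay in library 2. A count of 0 allows 3 counts, or 0.128 CPM in library 1 against 0.0729 in library 2. Gata6, the factor of peritoneal macrophages, had no counts in either library. Of 6 progenitor factors, Hoxa9 and Mecom had no counts in either library, while Meis1 had 159 and 171 counts (log2 ratio −0.71) and Hlf had 128 and 100 (log2 ratio −1.17). Of 12 factors of neurons, glia, endothelium and choroid plexus, 1 (Sox9) was a counted gene, with 12 and 38 counts. None of 8 lymphoid and erythroid factors was. Pax5 of B cells had 0 and 1 counts, whereas Gata1 of erythroid cells, basophils and eosinophils had 3 and 72 and Otx2 of choroid plexus 9 and 72. Among the same progenitor factors, Myb, a factor of dividing blood progenitors that microglia do not need, had 10 and 154 counts, and Gata2 had 4 and 55. Library 2 also held more basophil and choroid plexus RNA, at 169 CPM against 0.257 CPM over 6 basophil and mast cell markers and 370.03 CPM against 24.3 CPM over 5 choroid plexus markers, and their part in these counts was not tested.

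For each factor, the counted protein-coding gene nearest to it in both libraries was taken from 11501 such genes, by Euclidean distance in log2 CPM over the 2 libraries. With 2 libraries such likeness is common, so it is given as a description. The nearest gene was Bin1 for Spi1 (distance 0.057), P4hb for Irf8 (0.15), Tlr13 for Sall1 (0.023), Adgre1 for Mef2c (0.038) and Pycard for Maf (0.032). It was Srgap2 for Mef2a (0.090), Wwp2 for Runx1 (0.078), Abca3 for Cebpa (0.061) and Znrf3 for Cebpb (0.035).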

How the data were processed

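RNA was measured by RNA-seq in 2 libraries of sorted sham microglia, which form 1 group from their titles. The values are raw counts per Ensembl gene as deposited by the authors, who mapped reads to GRCm38 with HISAT2 and counted them with HTSeq. Their versions, annotation and strandedness are not given in the sources used here. cDNA was made with the SMART-Seq HT Kit, which primes at poly(A), so RNA quality can change levels along transcript length.

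Counts were divided by the library total and scaled to 1000000 (CPM). Symbols matched 53620 of 53801 identifiers. Of the identifiers named Ddit3, the one with counts was used, a choice made from the counts. Starts of the deposited files count from 0 and are printed from 1. Levels between genes were divided by the union of exons in GENCODE M21. With 1 group no condition was tested. Ratios between libraries have exact 95% intervals for counting error only, since amplified reads are not independent molecules. A gene was called when past 2-fold, if it had reached 10 counts in each library. The precision of a level rests on the 23381026 and 41142609 counts and on 2 mice. The common biological coefficient of variation came from edgeR 4.0.16 with TMM and an intercept only, and was 0.479 over 13455 genes. DESeq2 1.42.0 gave size factors as an alternative, and the other alternatives are given with their effects in the closing section. Per gene, the longest transcript set GC content and length. Joint bins of both under 30 genes used the GC bin alone. R 4.3.3, Python 3.11.15, numpy 2.4.6, pandas 2.3.3, scipy 1.17.1 and matplotlib 3.10.9 were used. The steps were tested on simulated data.

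The 9 genes and all lists were chosen with earlier results of these data known. Genes named are the factors, their relatives and partners, listed factors of other cells that were counted or had no counts, marker sums, the nearest gene of each factor and genes that overlap its exons. Others named (Pax5, Gata1, Gata2, Otx2, Csf3r, Chil3) were chosen after their values were seen. One listed gene is not reported here and is left out of all lists and their counts. Protein identity was not analysed here, and promoter windows of Spi1 and Maf were not used here. The authors' table of MCAO against sham was not used.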

Additional observations from a re-analysis of the deposited data

How the results depend on the processing

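No paired analysis was possible because both libraries belong to 1 group. The count of factors past 2-fold between the libraries was 4 as CPM, 3 with TMM scaling, with DESeq2 size factors or with the median of the GC bin subtracted, and it fell to 2 with the median of the length bin subtracted and to 2 with GC and length bins together. It was 4 with totals without mitochondrially encoded genes or without the neutrophil markers, and 3 of 8 with at least 100 counts, because Cebpb was left out. The median log2 ratio of the 9 factors was −0.98. It was −0.75 with TMM, −0.71 with DESeq2 size factors, −0.90 without the neutrophil markers in the totals, −0.73 with GC bins, −0.87 with at least 100 counts, −0.24 with length bins and −0.0011 with GC and length bins. The ratio of Sall1 reversed, from −1.20 to 0.032 with GC and length bins, and the cause was not tested. Ratios under 2-fold also changed sign, that of Mef2c with TMM, DESeq2 size factors and both alternatives with length bins, and that of Maf with the alternatives with length bins. Of 55 relatives and partners counted, 19 were past 2-fold in either direction, beside 31.7% of all counted genes. With GC and length bins 11 were, a scale on which 12.7% of all counted genes were lower by more than 2-fold. The share of all genes in either direction was not taken on that scale, so nothing about these genes is read from the change. The mean share of Irf8 in the IRF level per length was 27.2% with exons, 35.1% with the longest transcript and 45.9% with coding exons, the latter 2 chosen after seeing the data. Both alternatives with length bins were chosen after seeing the data. Of the 36 pairs of factors, 32 kept their order in both libraries, and 35 did with the longest transcript or coding exons as length. The biological coefficient of variation of 0.479 was 0.550 without the filter on low counts, 0.477 with DESeq2 size factors and 0.499 without normalization factors. Mean CPM of the 9 factors moved by less than 1 SD under all 54 recomputations, but with 2 libraries leaving 1 out always does, so this says nothing about stability. Depth limits Cebpb most, with 84 counts in library 2.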
